A study of Mus musculus with 24 samples.

Results

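The 10 genes of the Z-disc and of the giant sarcomere proteins were followed through myogenic differentiation: Ttn, Neb, Actn2, Actn3, Myoz1, Myoz2, Myoz3, Ldb3, Myot and Tcap. They were taken by gene name from the deposited table, in which all 10 of these names were found once, among 28109 genes. RNA-seq had been performed on C2C12 cells, an established myoblast line that the labels assign to the C3H strain, and on primary myoblasts (PMs) isolated from young mice (C57/B6 in the labels, C57BL/6 in the methods) and plated on matrigel. Both cell types had been transfected with siTead1/4, pools of siRNAs against Tead1 and Tead4 given together, or with siControl, a control siRNA that the labels write as siLuc and the methods describe as non-targeting, and no group was left untransfected. RNA was prepared 24 hours after transfection (day 0) and after 3 and 6 days in medium with 2% horse serum, in 2 biological replicates, giving 12 groups and 24 libraries. Strain, origin, culture history and base medium (DMEM for C2C12 cells and IMDM for PMs in the methods) all differ between C2C12 cells and PMs. These differences cannot be told apart in any comparison of the 2 cell types.

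The Z-disc is the border of the sarcomere, the contractile unit of striated muscle, where actin filaments of opposite polarity are anchored and cross-linked. Titin, encoded by Ttn, is an elastic protein that spans from the Z-disc to the M-band, and nebulin, encoded by Neb, runs along the thin filament. Alpha-actinins cross-link actin at the Z-disc, and myozenins, Ldb3 (also called Cypher or ZASP), myotilin (Myot) and telethonin (Tcap) bind alpha-actinin, filamin or the end of titin there. The genes are switched on as myoblasts leave the cell cycle and fuse into myotubes.

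Library totals ranged from 25453830 to 52784510 counts. Levels below are CPM, the counts of a gene put on a common library size by the trimmed mean of M-values (TMM) over all 24 libraries, and they are divided by gene length only where levels of different genes are compared. Calls required both an absolute log2 fold change over 1 and, in the quasi-likelihood test of edgeR, an adjusted p under 0.05 (Benjamini-Hochberg over all genes tested). Tead4 was lower in siTead1/4 cells in 5 of the 6 pairs of groups by this rule, with C2C12 cells at day 6 not called, and Tead1 was called in PMs at days 0 and 3 alone. Tead1 in C2C12 cells at day 0 was at 28.9 and 4.50 CPM in the siTead1/4 libraries against 70.5 and 113 CPM in the siControl libraries. At day 3 it was at 66.9 and 51.1 against 95.6 and 151 CPM, and at day 6 at 70.6 and 77.0 against 76.0 and 136 CPM. The log2 fold changes at day 3 were -1.09 ± 0.63 (SE) for Tead1 and -1.76 ± 0.35 for Tead4 in C2C12 cells. In PMs they were -1.68 ± 0.31 and -2.58 ± 0.17. The part of this unequal silencing in differences between the cell types was not tested. All 6 myoblast markers and all 6 myotube markers listed were detected in every group. At day 0 the myotube markers summed to 8239 to 8982 CPM in PM siControl libraries, against 21.5 to 73.5 CPM in C2C12 siControl libraries. By these markers day 0 was not an equal starting point in the 2 cell types. Their part in the differences between the cell types and in the size of the rises was not tested. Endothelial, macrophage and Schwann cell lists summed to at most 27.1 CPM, the fibroblast list reached 2917 CPM in PMs at day 6, and the smooth muscle list was between 776 and 4258 CPM in every library, with 3 to 5 of its 5 genes at 1 CPM or more. In bulk RNA of this kind, fewer myotubes in the dish and less of an mRNA per myotube cannot be told apart.

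The genes differ widely in size, which affects how many reads each attracts. On mm9 (NCBIM37), Ttn lies at chr2:76542037-76820604 and has 113727 bases of annotated gene length, followed by Neb at chr2:51992167-52194318 with 26369 bases. Actn2 is at chr13:12361693-12433027 and Actn3 at chr19:4861223-4877909. Myoz1 is at chr14:21468324-21475762, Myoz2 at chr3:122709124-122737908 and Ldb3 at chr14:35339885-35401867. Tcap, at chr11:98245125-98246267, has the shortest span, 1143 bases, of which 948 count as gene length. Exons of the other members overlapped no exon of another gene in the annotation of that build, and those of Ttn shared 0.388% of their bases with Gm13938 on the opposite strand, whose reads this unstranded kit does not separate.

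Actn2 and Myoz2 were the 2 members called lower after silencing, as described below, and their promoters are shown for that reason. Tead factors bind the MCAT element, whose core is CATTCC, the myogenic bHLH factors bind some forms of the E-box, CANNTG, and Mef2 factors bind an A/T-rich site. The search took any CANNTG, so an E-box match does not tell which factor binds it. The table of RefSeq promoters (build GRCm38.p6) held 5 entries for 4 members, Ttn, Actn2, Myoz2 and Ldb3, and the 250 bases before each start matched mm9 exactly and once on their chromosome. The sequences below run 5′ to 3′ on the minus strand and stop at the border of the annotated gene, with E-box and MEF2 consensus matches in capitals. The first is chr13:12433028-12433249 and the second is chr3:122737909-122738155, and both are the reference sequence of C57BL/6 rather than of the C3H line.
Actn2: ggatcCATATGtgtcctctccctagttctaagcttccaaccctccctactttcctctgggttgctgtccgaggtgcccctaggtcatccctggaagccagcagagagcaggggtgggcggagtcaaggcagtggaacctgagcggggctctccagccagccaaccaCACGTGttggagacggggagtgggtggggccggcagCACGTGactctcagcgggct
Myoz2: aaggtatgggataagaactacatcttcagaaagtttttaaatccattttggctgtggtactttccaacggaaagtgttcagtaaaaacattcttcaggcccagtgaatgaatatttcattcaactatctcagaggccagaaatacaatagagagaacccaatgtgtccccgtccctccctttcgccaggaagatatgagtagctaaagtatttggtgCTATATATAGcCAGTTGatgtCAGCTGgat
The Actn2 window held 3 E-boxes, CATATG and 2 copies of CACGTG, the nearer copy 48 bases before the RefSeq start. The Myoz2 window held the E-boxes CAGTTG and CAGCTG at 22 and 12 bases before the start, next to a MEF2 consensus match, CTATATATAG, at 33 bases, and none of these overlapped. Searched on both strands, CATTCC or its complement was in none of the 5 windows and in 12.6% of all 32851 promoter windows of that length. An E-box was found in 66.2% and the MEF2 consensus in 0.508% of these windows, the latter also in that of Ttn at 166 bases before the start. Both starts of Ldb3 lay downstream of a CArG box, CCATTTATGG, the type of site bound by serum response factor, which 1.47% of windows held. A match describes letters in the reference, and no match says only that these letters are not in these windows.

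In siControl cells nearly all members rose with differentiation in both cell types, and on the log2 scale most of the rise was over by day 3. In CPM, Myot and Tcap gained more after day 3 in C2C12 cells. Their means there were 4.64 and 36.7 CPM at day 3 and 22.8 and 79.5 CPM at day 6. In C2C12 siControl cells, 8 of the 9 members tested were called higher at day 3 than at day 0, where 16% of all genes tested were called higher and 12.7% lower, and 9 of 9 at day 6 (17.1% of all genes). In PMs, 10 of 10 members were called higher at day 3 (17.5% of all genes) and at day 6 (20.2%). The median log2 fold change at day 3 was 6.45 over the members tested in C2C12 cells and 2.62 in PMs, against -0.01 and 0.01 over all genes. Between days 3 and 6, edgeR called no member in either direction, and neither did DESeq2, where 0% of all genes in C2C12 cells were called and 2.22% of those in PMs were called higher and 0.582% lower. At an unadjusted p under 0.05, 1 member was higher in each cell type and 4 were lower in PMs.

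**Figure D1:**
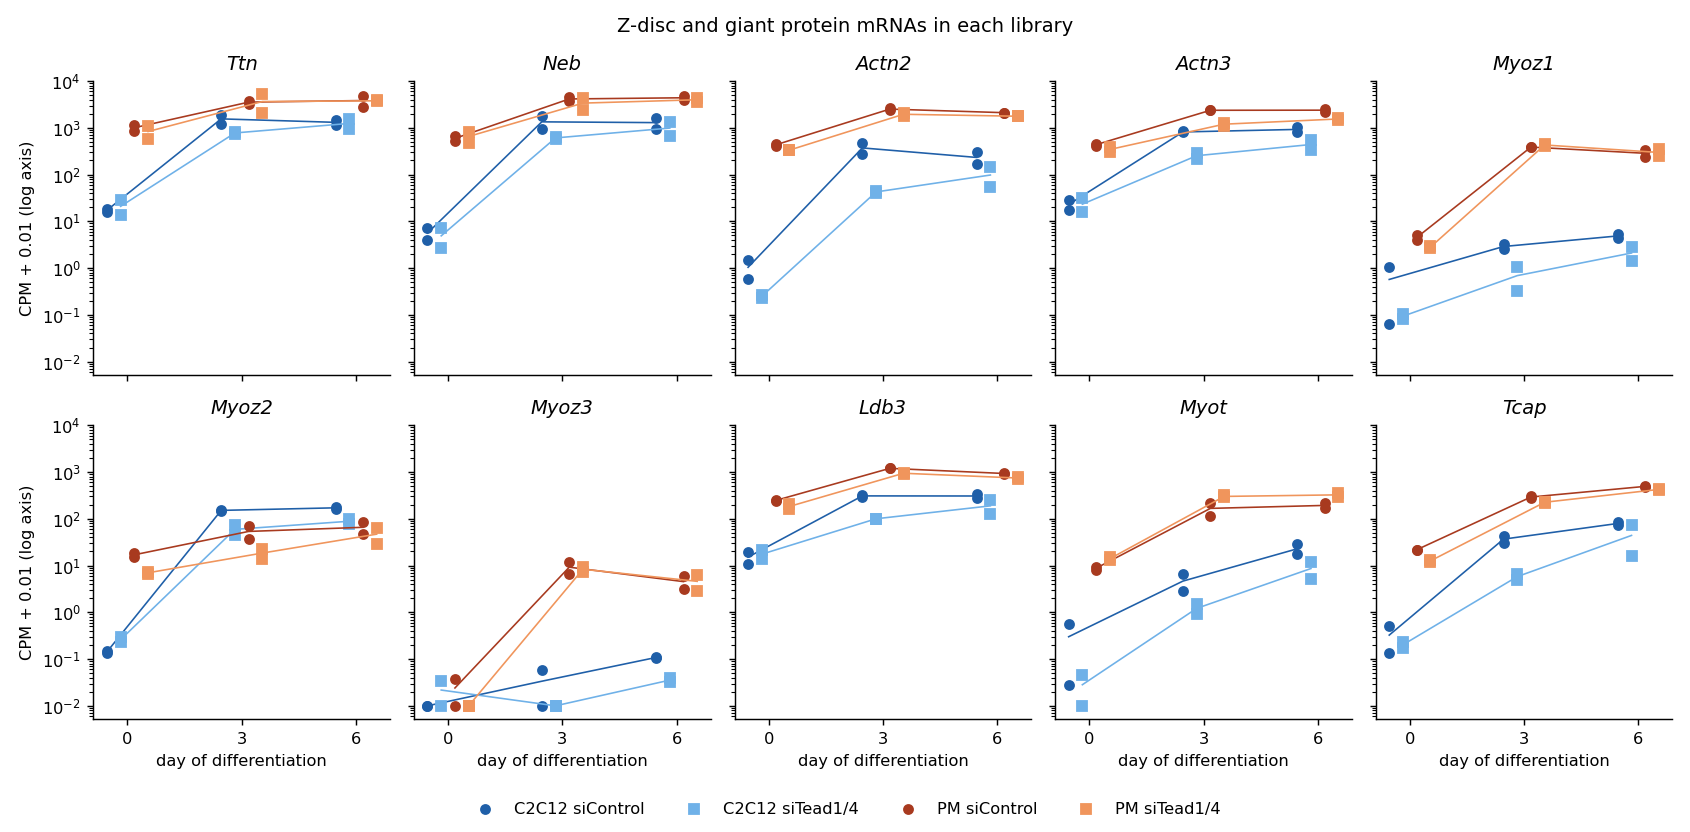
Level of each member in every library (CPM on a log axis, with a small constant added so that 0 can be drawn) by day of differentiation (0, 3 or 6). Circles are siControl and squares siTead1/4 libraries of C2C12 cells (blue) and PMs (red and orange), and lines join the means of 2 replicates. C2C12 libraries start far below PM libraries at day 0 for all members but Myoz3, and Myoz2 is the member that ends higher in C2C12 siControl cells than in PM siControl cells.

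The giant proteins rose steeply in C2C12 cells. Ttn was at 18.6 and 15.9 CPM in the siControl libraries at day 0, at 1202 and 1903 CPM at day 3 and at 1168 and 1452 CPM at day 6, a log2 fold change of 6.45 ± 0.45 (SE) at day 3 (edgeR adjusted p = 6.55e-06). In PMs Ttn was already at 1148 and 861 CPM at day 0, and reached 3806 and 3277 CPM at day 3, a rise of 1.76 ± 0.42 on the log2 scale (edgeR adjusted p = 0.00458). Neb behaved alike, with 7.23 and 3.96 CPM at day 0 and 928 and 1756 CPM at day 3 in C2C12 cells, and 658 and 530.3 CPM followed by 4454 and 3831 CPM in PMs. The day 3 libraries lay above the day 0 libraries for both genes in both cell types.

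The muscle alpha-actinins rose in both cell types, from very different starting levels. Actn2, the form found in all striated muscle fibres, was at 1.49 and 0.569 CPM at day 0 and reached 269.8 and 474 CPM by day 3, a rise of 8.50 ± 0.70 on the log2 scale (edgeR adjusted p = 1.51e-05). Actn3, the form of fast fibres, was at 28.0 and 17.8 CPM at day 0 and at 797 and 835 CPM at day 3 (5.12 ± 0.43, adjusted p = 1.78e-05). In PMs Actn2 was at 411 and 451 CPM at day 0 and reached 2643 and 2388 CPM at day 3. Actn3 was at 456 and 417 CPM and reached 2389 and 2355 CPM there, so that both were already abundant at day 0. Of the non-muscle alpha-actinins, Actn1 was called lower in C2C12 cells at day 6 (-1.01 ± 0.24, edgeR adjusted p = 0.00642), and Actn4 did not reach the fold limit (-0.98 ± 0.30, adjusted p = 0.0219). Neither reached that limit in PMs. Actn4 was there at -0.81 ± 0.10 at day 3 and -0.66 ± 0.10 at day 6 (edgeR adjusted p = 4.58e-05 and 0.000171). Actn1 was at -0.55 ± 0.17 and -0.25 ± 0.17 (adjusted p = 0.0197 and 0.237).

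The myozenins, which link alpha-actinin, filamin and calcineurin, split by cell type. Myoz2, the calsarcin of slow and cardiac muscle, rose from 0.141 and 0.124 CPM at day 0 to 152 and 151 CPM at day 3 in C2C12 siControl cells. Its rise was the largest of the members tested there (10.10 ± 0.37, edgeR adjusted p = 3.36e-07), from only 5 and 7 counts at day 0. In PMs it moved from 18.7 and 15.3 CPM to 36.1 and 71.3 CPM (1.60 ± 0.44, adjusted p = 0.00911), a call lost without either of the second replicates, at day 0 or at day 3. Myoz1, a calsarcin of fast fibres, showed the reverse, with the larger rise in PMs. In C2C12 cells it was at 1.07 and 0.0533 CPM at day 0, on 38 and 3 counts. It was at 3.28 and 2.49 CPM at day 3 and at 5.24 and 4.48 CPM at day 6 there, and the day 6 rise was called. In PMs Myoz1 rose from 5.09 and 3.89 CPM to 395 and 379.7 CPM at day 3 (6.37 ± 0.23, adjusted p = 5.01e-08). The day 3 rise of Myoz1 in C2C12 cells was not called (2.40 ± 0.90, adjusted p = 0.0558), and it was called without the first siControl library of day 0 (5.65, adjusted p = 0.00276), while the day 6 call was lost without the first siControl library of day 6 (3.03, adjusted p = 0.0605).

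Myoz3, the other fast-fibre myozenin, was absent or barely detected in C2C12 cells, with 8 counts or fewer over the 2 libraries of any group, and was not tested there after the filter on low counts. In PM siControl cells it had 0 and 1 counts at day 0, 11.7 and 6.75 CPM at day 3 and 5.95 and 3.10 CPM at day 6. The day 3 libraries held 684 counts against 1 at day 0, a ratio of 752 after scaling with an exact 95% interval for counting error of 135 to 29742. A count of 0 in a library allows up to 3 counts, and these intervals cover counting error only.

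The remaining scaffold genes rose in both cell types. Ldb3, a PDZ-LIM protein that binds alpha-actinin, went from 10.6 and 19.7 CPM to 289 and 329 CPM in C2C12 siControl cells by day 3, and from 251 and 241 CPM to 1198 and 1201 CPM in PMs. Tcap, which caps the end of titin, was at 0.507 and 0.124 CPM at day 0 in C2C12 siControl cells (18 and 7 counts). It reached 30.2 and 43.2 CPM at day 3 and 72.3 and 86.7 CPM at day 6 there. In PMs Tcap went from 21.9 and 21.6 CPM to 311 and 274 CPM and then to 504 and 484 CPM, and its log2 fold change of 0.75 ± 0.09 between days 3 and 6 had an edgeR adjusted p of 0.00324 but missed the fold limit. Myot, which binds alpha-actinin and filamin, went from 0.563 and 0.0178 CPM at day 0 (20 counts and 1 count) to 2.83 and 6.46 CPM and then 17.3 and 28.4 CPM in C2C12 cells, and from 9.37 and 8.14 CPM to 117 and 217 CPM at day 3 in PMs. The late Myot and Tcap values of C2C12 cells lay above their day 3 values in both libraries, without passing the test (2.29 ± 0.77 and 1.11 ± 0.58 on the log2 scale, both with an adjusted p of 1).

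PMs held more of nearly every member than C2C12 cells under siControl, a comparison that uses the same siControl libraries as those between days and those with siTead1/4. At day 0, 9 of 10 members were called higher in PMs (16.3% of all genes), Myoz3 being at 1 count or fewer in both. At day 3, 9 were called higher (17.2% of all genes) and Myoz2 was called lower (12.6%), and at day 6 again 9 were higher (15.7%) and Myoz2 lower (9.22%). The gap at day 0 was widest for Actn2 (8.77 ± 0.56 on the log2 scale, edgeR adjusted p = 2.48e-09), and at day 3 it had fallen to 2.76 ± 0.41. The widest gaps at day 3 were those of Myoz1, with a mean of 387 ± 10.8 CPM (SD, n = 2) in PMs against 2.88 ± 0.558 CPM in C2C12 cells, of Myot, at 5.16 ± 0.58 on the log2 scale, and of Myoz3, whose 684 counts in PMs stood against 2 in C2C12 cells. Myoz2 was lower in PMs by 1.49 on the log2 scale at day 3 (SE 0.38, edgeR adjusted p = 0.00404) and by 1.38 at day 6 (SE 0.38, adjusted p = 0.00832), calls lost without the first PM siControl library of the day. Leaving out single siControl libraries also ended the calls of Ttn and Neb at days 3 and 6, with log2 differences between 0.87 and 1.41 in those fits.

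Scaled to gene length, Actn3 led in both cell types, and Ttn stood below most members despite its many reads. In PM siControl cells at day 3, Actn3 had 819.6 ± 8.11 CPM per kb (SD, n = 2) and Actn2 681 ± 48.9 CPM per kb, followed by Tcap at 308 ± 27.5, Myoz1 at 299 ± 8.37, Ldb3 at 199 ± 0.310 and Neb at 157 ± 16.7 CPM per kb. Myot was at 75.6 ± 31.9, Myoz2 at 38.9 ± 18, Ttn at 31.1 ± 3.29 and Myoz3 at 10.6 ± 4.02 CPM per kb. The libraries of Tcap and Myoz1 overlapped on this scale, as did those of Myoz2 and Ttn. In C2C12 siControl cells at day 3, Actn3 led again at 282 ± 9.26 CPM per kb, and Myoz2 came next at 109.7 ± 0.816 CPM per kb, within the range of the Actn2 libraries (100.6 ± 39.0). Ldb3, at 51.4 ± 4.69 CPM per kb, lay above Tcap, at 38.7 ± 9.69 CPM per kb, in both libraries, while the Neb libraries (50.9 ± 22.2) overlapped those of both, and Ttn was at 13.7 ± 4.35 CPM per kb. Myoz1 and Myot, at 2.23 ± 0.432 and 2.1 ± 1.16 CPM per kb, stood near the bottom of the list in C2C12 cells, above Myoz3 alone.

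**Figure D2:**
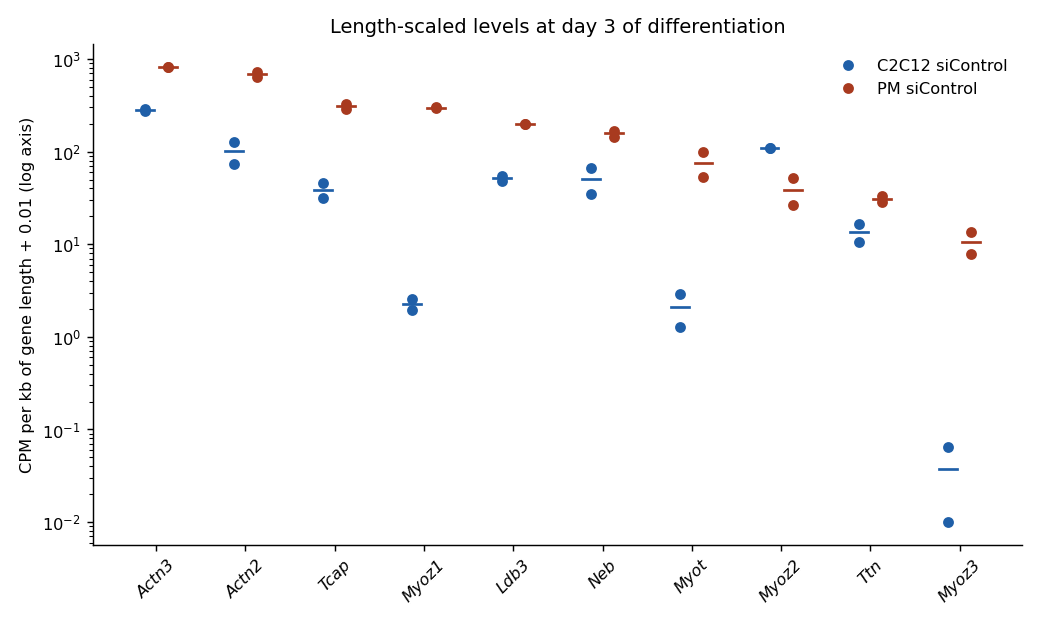
Level per kb of gene length (CPM per kb on a log axis, with the same small constant added) of each member in siControl cells at day 3, with members ordered by the PM mean. Points are single libraries, bars the mean of 2 replicates, blue C2C12 cells and red PMs. Myoz2 alone lies higher in C2C12 cells, and Myoz1, Myot and Myoz3 show the widest gaps.

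Tead1/4 silencing was then compared with siControl at each day. In C2C12 cells at day 3, Actn2 and Myoz2 were called lower in siTead1/4 cells, 2 of 9 members tested against 1.08% of all genes, and none was called higher, against 0.19%. All 9 members tested had both siTead1/4 libraries below both siControl libraries, an arrangement that 23.6% of all genes showed. The median log2 fold change was -1.72 over these 9 members and 0.01 over all genes. At day 0 edgeR called none lower (0.301% of all genes), with 1 at an unadjusted p under 0.05 and 1 called by DESeq2, and 1 of 9 had non-overlapping lower libraries against 17.7% of all genes. At day 6 edgeR called none in either direction (0.0327% of all genes lower and 0.0131% higher) and DESeq2 none, 3 members had an unadjusted p under 0.05, and 7 of 9 had non-overlapping lower libraries against 21% of all genes.

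Actn2 showed the largest fall among the members in C2C12 cells at day 3. It was at 39.8 and 45.3 CPM in siTead1/4 libraries against 269.8 and 474 CPM in siControl libraries, and fell by 3.16 on the log2 scale (SE 0.54, edgeR adjusted p = 0.0294). For this gene the siTead1/4 libraries lay close together, far below a siControl pair that itself spread widely. Over all genes it was the reverse. The siTead1/4 pair of this day agreed least of the 12 groups (Pearson's r of log2 CPM 0.981), and the siControl pair had r = 0.993. At day 6 the values were 53.5 and 142 against 167 and 299 CPM (-1.24 ± 0.50, adjusted p = 0.635). At day 0, under 60 counts in any library, they were 0.258 and 0.219 against 1.49 and 0.569 CPM (-2.03 ± 0.76, adjusted p = 0.36). Its partner Actn3 was at 220.3 and 286 against 797 and 835 CPM at day 3, a log2 fold change of -1.72 ± 0.37 that was not called (adjusted p = 0.0584), and the non-muscle forms Actn1 and Actn4 had fold changes of 0.34 ± 0.23 and -0.22 ± 0.29 (adjusted p = 0.593 and 0.828).

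Myoz2 fell by 1.38 on the log2 scale in C2C12 cells at day 3 (SE 0.23, edgeR adjusted p = 0.0289), with 44.6 and 74.3 CPM in siTead1/4 against 152 and 151 CPM in siControl libraries. At day 6 its groups still did not overlap, at 77.9 and 99.5 against 180.4 and 163 CPM (-0.95 ± 0.23, adjusted p = 0.254). Both day 3 calls rested on the shared spread of the 12 C2C12 libraries: with the 4 libraries of the comparison alone the adjusted p was 0.0518 for Actn2 and 0.119 for Myoz2. The Actn2 call was lost on leaving out any 1 of the 4 day 3 libraries (adjusted p from 0.0635 to 0.175, log2 fold change from -3.52 to -2.69), and that of Myoz2 on leaving out either siControl library (adjusted p = 0.14 and 0.175, both at -1.38).

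The members not called in C2C12 cells at day 3 pointed down as well. Tcap was at 5.00 and 6.58 CPM in siTead1/4 against 30.2 and 43.2 CPM in siControl libraries (-2.69 ± 0.62, edgeR adjusted p = 0.0711), and Ldb3 was at 99.6 and 101 against 289 and 329 CPM (-1.65 ± 0.37, adjusted p = 0.0682). Myot was at 0.926 and 1.48 against 2.83 and 6.46 CPM (-1.97 ± 0.80, adjusted p = 0.286), and Myoz1 at 0.318 and 1.04 against 3.28 and 2.49 CPM (-2.1 ± 0.87, adjusted p = 0.304). The giant proteins differed least, with Ttn at 823 and 731 against 1202 and 1903 CPM (-1.03 ± 0.36, adjusted p = 0.213) and Neb at 574 and 641 against 928 and 1756 CPM (-1.17 ± 0.51, adjusted p = 0.324). Without the filter on low counts all 9 were called, and DESeq2, or a fit over all 24 libraries, called 5: Actn2, Myoz2, Actn3, Ldb3 and Tcap. The 6 myotube markers summed to 4889 to 6430 CPM in the siTead1/4 libraries of day 3 against 13681 to 16473 CPM in the siControl libraries, and their part in the result was not tested. The 5 cardiac markers, summed, were at 5.88 to 6.77 against 73.6 to 90.6 CPM in the same libraries and at no more than 1.93 CPM in any PM library, and their part was not tested either.

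By day 6 the C2C12 siTead1/4 libraries were spread over a wide range. Tcap was at 16.2 and 72.0 CPM against 72.3 and 86.7 CPM, Ldb3 at 126 and 253 against 273 and 342 CPM, and Myot at 5.22 and 12.1 against 17.3 and 28.4 CPM. Actn3 was at 329 and 549.6 against 803 and 1047 CPM (-1.07 ± 0.37, edgeR adjusted p = 0.524). Ttn, at 960.1 and 1523 against 1168 and 1452 CPM, and Neb, at 674 and 1302 against 954.7 and 1629 CPM, overlapped between the groups. The second siTead1/4 library held the higher value for each of the 9 members tested at this day.

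**Figure D3:**
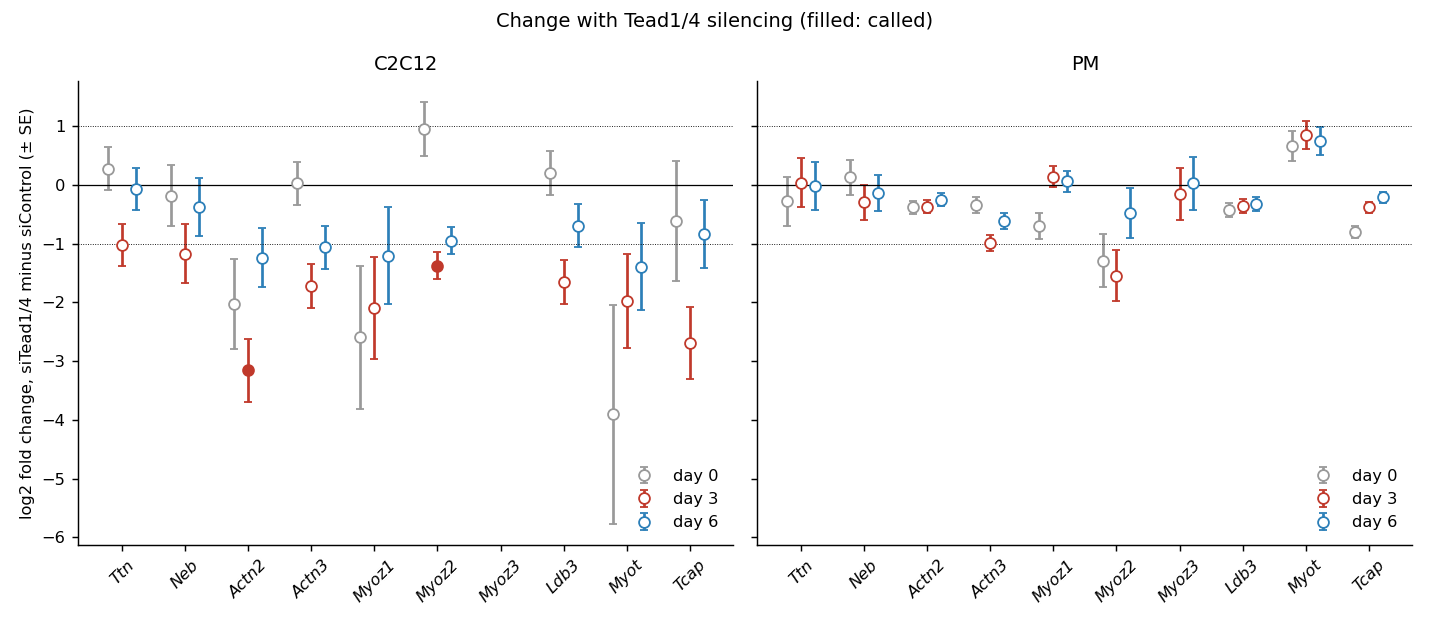
Log2 fold change of each member, siTead1/4 minus siControl, in C2C12 cells (left) and PMs (right) at day 0 (grey), day 3 (red) and day 6 (blue), with standard errors of the edgeR fit from 2 replicates per group. Filled points passed the adjusted p and the fold limit (dotted lines), and Myoz3 is shown only in PMs at days 3 and 6. Actn2 and Myoz2 at day 3 in C2C12 cells are the filled points, and in PMs Myot is above 0 at each day.

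In PMs no member was called at any day. The counts of members called lower stood at 0 of 10 against 1.1%, 1.2% and 0.279% of all genes at days 0, 3 and 6, and of members called higher at 0 against 1.5%, 2.1% and 0.465%. There were 6, 5 and 4 members lower at an unadjusted p under 0.05, and DESeq2 called 1 lower, at day 3. Both siTead1/4 libraries were below both siControl libraries for 6, 5 and 4 of 10 members, against 29.8%, 25% and 18.2% of all genes. The median log2 fold change over the members was -0.41, -0.33 and -0.18, against values within 0.01 of 0 over all genes. The myotube markers summed to 28843 to 31490 CPM in siTead1/4 against 35964 to 37423 CPM in siControl libraries at day 3, and their part in these values was not tested.

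Actn3 came nearest to a call in PMs. At day 3 it was at 1109.7 and 1283 CPM in siTead1/4 against 2389 and 2355 CPM in siControl libraries, a log2 fold change of -0.996 ± 0.14 (edgeR adjusted p = 0.00251) just inside the fold limit of 1, and leaving out the second library of either group took it past (-1.01 and -1.11). At day 6 it was at 1473 and 1621 against 2217 and 2553 CPM (-0.62 ± 0.14, adjusted p = 0.0606). Actn2 changed less, with 2071 and 1826 against 2643 and 2388 CPM at day 3 (-0.38 ± 0.11, adjusted p = 0.0657). The groups of both alpha-actinins did not overlap at any of the 3 days.

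Tcap passed the adjusted p but not the fold limit at days 0 and 3 in PMs. It was at 12.1 and 13 against 21.9 and 21.6 CPM at day 0 (-0.80 ± 0.10, edgeR adjusted p = 0.00187) and at 223 and 229 against 311 and 274 CPM at day 3 (-0.38 ± 0.09, adjusted p = 0.0363). Ldb3 was at 203 and 163 against 251 and 241 CPM at day 0 and at 963 and 921 against 1198 and 1201 CPM at day 3, with log2 fold changes of -0.44 ± 0.12 and -0.36 ± 0.12 (adjusted p = 0.0535 and 0.104). Both genes kept siTead1/4 libraries below siControl libraries at all 3 days.

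The myozenins and myotilin parted ways in PMs. Myoz2 was at 7.33 and 6.66 against 18.7 and 15.3 CPM at day 0 (-1.29 ± 0.45, edgeR adjusted p = 0.114) and at 13.9 and 23.1 against 36.1 and 71.3 CPM at day 3 (-1.55 ± 0.44, adjusted p = 0.0598), and its groups overlapped at day 6. The day 0 fold change of Myoz2 was called with the 4 libraries of the comparison alone (adjusted p = 0.00565). That of day 3 was called by DESeq2 (adjusted p = 0.0313) and with all 24 libraries in the fit (adjusted p = 0.042). Myoz1, at 416 and 442 against 395 and 379.7 CPM at day 3, and Myoz3, at 9.51 and 7.15 against 11.7 and 6.75 CPM, had log2 fold changes of 0.14 ± 0.18 and -0.15 ± 0.44. Myot was higher in both siTead1/4 libraries at each day without being called: 14.9 and 13.1 against 9.37 and 8.14 CPM, 286 and 316 against 117 and 217 CPM, and 353 and 297 against 217 and 169 CPM (0.66 ± 0.25, 0.84 ± 0.24 and 0.75 ± 0.24, adjusted p = 0.146, 0.0604 and 0.2). Without the second siControl library of day 3 Myot was called higher there (1.35, adjusted p = 0.00724).

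Titin and nebulin did not separate the groups in PMs. Ttn was at 5187 and 2108 CPM in the siTead1/4 libraries of day 3 against 3806 and 3277 CPM in siControl libraries, and at 3655 and 3907 against 2815 and 4852 CPM at day 6. Neb was at 4332 and 2423 against 4454 and 3831 CPM, and at 4377 and 3589 against 3893 and 4892 CPM. Their log2 fold changes lay between -0.30 and 0.13, with standard errors of 0.41 for Ttn and 0.30 for Neb, and the groups overlapped at each day for both. The wide spread of the siTead1/4 libraries at day 3 touched both giant genes, the first replicate being the higher in each case.

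Whether silencing acted differently in the 2 cell types was tested as a difference of fold changes, PM minus C2C12, in a fit of all 24 libraries. At day 3 the difference was called for Actn2 (2.76 ± 0.55 on the log2 scale, edgeR adjusted p = 0.0196), 1 of 10 members against 1.02% of all genes. The fall of Actn2 in C2C12 cells was larger than in PMs, where its fold change was -0.38 ± 0.11. Next came Myot (2.79 ± 0.75, adjusted p = 0.0851) and Tcap (2.29 ± 0.62, adjusted p = 0.0861), neither of them called. For Myoz2, whose fold changes at day 3 were -1.38 and -1.55, the difference was -0.19 ± 0.53 (adjusted p = 0.946). No member was called at day 0 (0.00591% of all genes higher) or day 6 (0.0295%) by edgeR or DESeq2, with 2 and 1 members higher and 1 and 0 lower at an unadjusted p under 0.05. Leaving out single libraries ended the Actn2 call in 5 of 8 fits, with differences from 2.30 to 2.84 and adjusted p from 0.0547 to 0.116 there: without the second C2C12 siControl library of day 3, or without any 1 of the 4 PM libraries of that day.

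Ratios of counts between members compare forms within a library, do not depend on library scaling and are not divided by gene length. They were computed as log2 after adding 0.5 to each count, compared over the 3 days with an exact permutation test within days (two-sided, smallest p possible 0.00926), and adjusted over 9 comparisons. The ratio of Actn3 to Actn2 in C2C12 siControl cells on the log2 scale was 4.21 and 4.94 at day 0. It then stood at 1.56 and 0.82 (day 3) and at 2.27 and 1.81 (day 6). In PM siControl cells it stayed between -0.15 and 0.28 at all days. The PM minus C2C12 difference averaged -2.57 (permutation p = 0.00926, adjusted p = 0.0417, lower in 6 of 6 PM libraries at the same day). In C2C12 cells the ratio was higher after silencing by 1.16 on average (permutation p = 0.0185, adjusted p = 0.0417), by 1.86, 1.37 and 0.25 at days 0, 3 and 6. The siTead1/4 libraries of day 0 held 11 and 6 counts of Actn2, and the groups overlapped at day 6. Over days 3 and 6 alone the mean was 0.81 (permutation p = 0.111 before adjustment, where the smallest possible is 0.0556). In PMs silencing changed it by -0.32 (permutation p = 0.0463, adjusted p = 0.0833), with -0.90 and -0.51 in the siTead1/4 libraries of day 3 against -0.15 and -0.02.

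The ratio of Myoz1 to Myoz2 reversed between the cell types once they differentiated. In C2C12 siControl cells it was -5.53 and -5.91 at day 3 and -5.10 and -5.18 at day 6 on the log2 scale, and in PM siControl cells 3.45 and 2.41 and then 2.79 and 1.53. At day 0 it was 2.81 and -1.10 in C2C12 cells, on 38 and 3 counts of Myoz1, and -1.88 and -1.97 in PMs. The PM minus C2C12 difference was -2.78 at day 0, 8.65 at day 3 and 7.30 at day 6. Its mean over the 3 days, which combines opposite signs, was 4.39 (permutation p = 0.0556, adjusted p = 0.0833). Over days 3 and 6 alone the mean was 7.98 (permutation p = 0.0556 before adjustment, the smallest possible with 36 arrangements). Silencing changed the ratio by -1.16 on average in C2C12 cells (permutation p = 0.0185, adjusted p = 0.0417), by -2.28, -0.89 and -0.32 at days 0, 3 and 6. The day 0 part rested on 2 to 38 counts of Myoz1 and 5 to 12 counts of Myoz2 per library. The mean was -0.61 over days 3 and 6 alone and -0.82 with 5 counts added, and -0.44 without the first and -1.89 without the second siControl replicates. In PMs silencing moved the ratio by 0.95 (permutation p = 0.0648, adjusted p = 0.0833), where the siTead1/4 libraries of day 3 were at 4.91 and 4.26.

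The ratio of Neb to Ttn rose with differentiation and was steadier. In C2C12 siControl cells its log2 values were -1.36 and -2.00 before differentiation, -0.37 and -0.12 after 3 days, and -0.29 and 0.17 after 6 days, against -0.80 and -0.70, 0.23 and 0.23, and 0.47 and 0.01 in PM siControl cells. The PM minus C2C12 difference averaged 0.57 (permutation p = 0.0185, adjusted p = 0.0417). Silencing shifted it by -0.30 in C2C12 cells (permutation p = 0.0833, adjusted p = 0.0938) and by -0.0030 in PMs (permutation p = 1, adjusted p = 1), where the difference was 0.42 at day 0 and -0.26 at day 3.

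**Figure D4:**
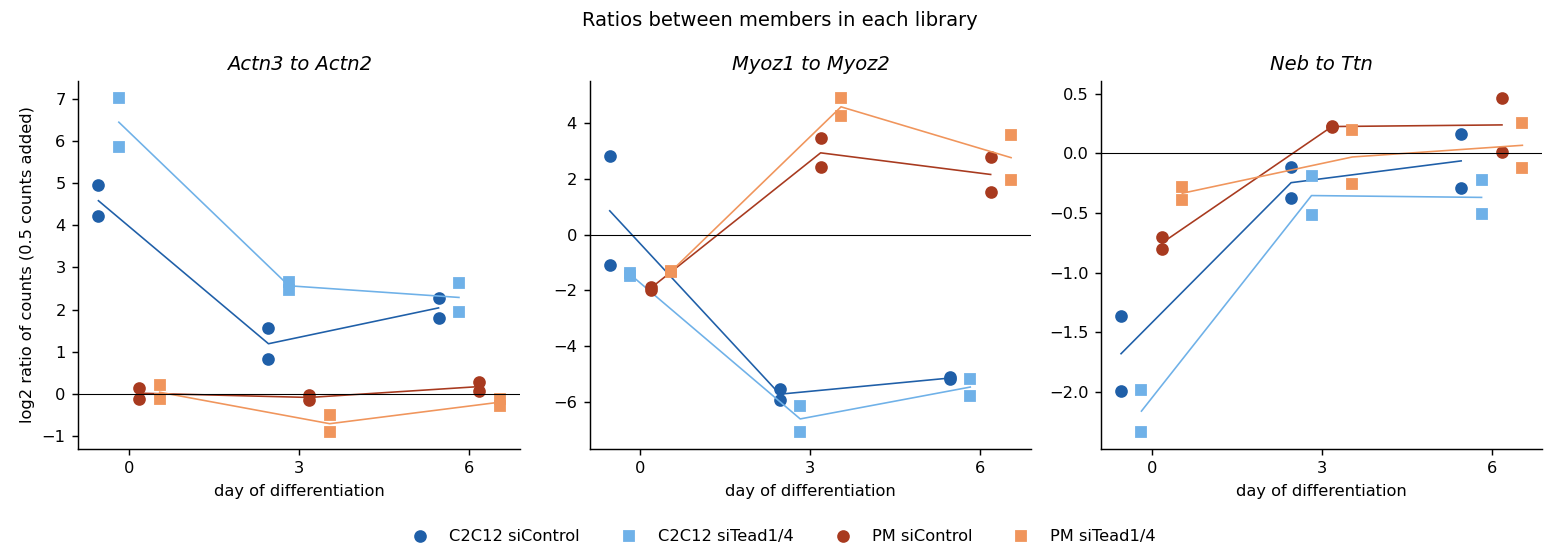
Log2 ratio of counts between pairs of members (0.5 counts added) in each library by day of differentiation (0, 3 or 6), with circles for siControl, squares for siTead1/4, blue for C2C12 cells and red or orange for PMs, and lines through the means of 2 replicates. Actn3 to Actn2 lies near 0 in PMs and above it in C2C12 cells, and Myoz1 to Myoz2 lies on opposite sides of 0 in the 2 cell types at days 3 and 6.

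Across the 24 libraries, the members' profiles were compared by Pearson's r of log2 CPM, given as a description since libraries of the same days and cell types are not independent. Among 16926 genes compared, the gene nearest to Ttn was Neb (r = 0.996, 24 libraries), and the gene nearest to Neb was Myom1, of the M-band (r = 0.997, 24 libraries). Actn2 was nearest to Cand2, Pgam2 and Mypn, the last a Z-disc protein that binds alpha-actinin. Actn3 was nearest to 1810020D17Rik, Yipf7 and Atp2a1, the calcium pump of fast fibres. Tcap was nearest to Xirp1, Obsl1 and Yipf7, Ldb3 to Reep1, Sort1 and Pgam2, and Myot to Ampd1, Itga9 and Ppp1r3a, all with r between 0.977 and 0.987. The myozenins had separate neighbours: Slc2a4, the insulin-responsive glucose transporter, Kcnj11 and Pvalb for Myoz1, Cd36, the fatty acid transporter, Dclk1 and Ccdc141 for Myoz2, and Asb12, Tmod4 and Gdpd4 for Myoz3. Within the family, Myoz1 and Myoz3 had r = 0.934, while Myoz2 had r = 0.485 with Myoz1 and 0.291 with Myoz3, in each case over 24 libraries.

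Partners of the members were followed through lists set beside them. At day 3 in siControl cells, 16% of all genes tested were called higher and 12.7% lower in C2C12 cells, and 17.5% and 14.9% in PMs. Of 20 Z-disc partners, 15 of 19 tested were called higher and 1 lower at day 3 in C2C12 siControl cells, and 14 of 20 higher and 1 lower in PMs. Of 20 partners of titin, nebulin and the thin filament, 16 were called higher in C2C12 cells, and 16 higher and 1 lower in PMs. After silencing in C2C12 cells at day 3, 2 of 19 Z-disc partners were called lower, against 1.08% of all genes. These were Csrp3, the muscle LIM protein, and Nebl, the short relative of nebulin (-2.17 ± 0.44 and -1.73 ± 0.35, edgeR adjusted p = 0.0454 and 0.0456). Among the titin and thin filament partners, Ankrd2, which binds the spring region of titin, and Tmod1, which caps thin filaments, were called lower (-3.55 ± 0.41 and -2.23 ± 0.33, adjusted p = 0.0093 and 0.0167). Kbtbd10, also named Klhl41, was called higher in C2C12 cells at day 0 (2.33 ± 0.40, adjusted p = 0.0381), and no other gene of these 2 lists was called in C2C12 cells at any day.

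In PMs the same lists held calls that the members did not, where 1.1%, 1.2% and 0.279% of all genes were called lower at days 0, 3 and 6. Ankrd2, its relative Ankrd23 and the LIM protein Fhl1 were called lower at all 3 days, with log2 fold changes at day 3 of -3.80 ± 0.49, -1.54 ± 0.18 and -2.26 ± 0.22 (edgeR adjusted p = 0.00184, 0.00122 and 0.000601). Xirp2, a Z-disc associated actin-binding protein, was called lower at day 3 (-2.27 ± 0.50, adjusted p = 0.023). Fbxl22 and Tmod1 were called in the difference between cell types at day 3, at 1.63 ± 0.30 and 1.68 ± 0.37 (adjusted p = 0.0138 and 0.0348). None of the 10 calcineurin and NFAT genes, the pathway that myozenins bind, and neither of the non-muscle alpha-actinins was called by silencing in either cell type. Since silencing called at most 2.1% of all genes in 1 direction at any day, lists this short cannot show a lack of response. The medians of the Z-disc partners and of the titin and thin filament partners at day 3 were -0.81 and -1.18 in C2C12 cells and -0.24 and -0.27 in PMs, beside -1.72 and -0.33 for the members.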

How the data were processed

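Total RNA from C2C12 cells and primary myoblasts (PMs) had been made into polyA-selected, unstranded TruSeq libraries. The deposited table holds read counts per gene made by the authors, with names and gene lengths. The submitters' processing notes name CASAVA 1.8.2, TopHat2 2.0.10, Bowtie2 2.1.0, HTSeq 0.6.1, DESeq2 1.8.1 and mm9. Other deposited columns, in a unit the authors normalized (48 columns), and 36 columns of 12 libraries absent from the labels were not used. Gene lengths, another deposited column, served only for levels per kb. Groups came from the labels, with 25453830 to 52784510 counts per library, which limits values of a few counts.

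Counts were fitted by edgeR 4.0.16 (R 4.3.3, limma 3.58.1) with TMM scaling, the filterByExpr filter and the quasi-likelihood test. The 12 libraries of a cell type entered 1 fit with 6 group means, and all 24 libraries entered the fit used between cell types. Genes tested numbered 15303 in C2C12 cells, 16144 in PMs and 16926 in all libraries. Labels call the replicates biological, and p-values measure the spread between them. All 10 members were named, and partners where called. Members and lists were chosen with earlier results of these data known. Ratios were tested by exact permutation (scipy 1.17.1). Alternatives were DESeq2 1.42.0, other filters, scaling, fits and library sets. On simulated counts for C2C12 day 3 (15303 genes), 64 of 100 genes changed by 1.5 on the log2 scale and 99 of 100 changed by 3 were recovered, with 12 false calls. For PM day 3 (16144 genes) the numbers were 91 and 99 with 5 false calls, and for the difference between cell types at day 3 (16926 genes) 52 and 88 with 7. Only genes over 1 CPM were changed, and the mean and spread of a gene were otherwise equal in all groups. Changes in genes with few counts, changes between days, groups of unequal spread and deviations shared by libraries were not simulated. Of the nearest genes of Ttn and Neb, 1 is not reported here.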

Additional observations from a re-analysis of the deposited data

Results flagged for a closer look

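The response of Actn2 to siTead1/4 at day 3 differed between the cell types by the test of the difference itself. The fold change in PMs minus that in C2C12 cells was 2.76 on the log2 scale (SE 0.55, edgeR adjusted p = 0.0196, 2 replicates per group). Both siTead1/4 libraries lay below both siControl libraries in each cell type. The call was lost in 5 of 8 fits that left out 1 library of day 3, and the difference stayed between 2.30 and 3.12 in these 8 fits.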

How the results depend on the processing

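Under the alternatives run, directions held for every member and comparison with an unadjusted p under 0.05 in the fit reported, and for the ratios apart from that of Neb to Ttn in PMs, near 0. The number of members called was less stable. For members called lower by silencing in C2C12 cells, dropping the filter on low counts gave 3, 9 and 3 at days 0, 3 and 6 in place of 0, 2 and 0. DESeq2 gave 1 at day 0 and 5 at day 3, all 24 libraries in 1 fit gave 5 at day 3, and the 4 libraries of the comparison alone gave 0. A minimum of 10 counts in every library also gave 0. It left only Ttn, Neb, Actn3 and Ldb3 in the test, so Actn2 and Myoz2 could not be called. In PMs, members called lower rose from 0 to 1 at day 0 without the filter, with only the 4 libraries and without the fold limit. At day 3 they rose to 1 without the filter, with DESeq2 and with all 24 libraries in 1 fit, and to 2 without the fold limit. For the difference between cell types, dropping the filter gave 1, 5 and 1 members at days 0, 3 and 6 in place of 0, 1 and 0. At day 3 DESeq2 gave 2, and the minimum of 10 counts, which again left Actn2 untested, gave 0. That minimum kept too few members to compare counts of calls: it left 4 called higher at days 3 and 6 in C2C12 cells. In PMs against C2C12 cells it left 4 called higher at each day and 0 lower at days 3 and 6, with Myoz2 not tested. Between days 3 and 6, the fit without the filter called 2 members higher in C2C12 cells and 1 lower in PMs, and that without the fold limit 1 higher in PMs. With days 3 and 6 alone, the PM minus C2C12 difference was -1.57 for Actn3 to Actn2 and 7.98 for Myoz1 to Myoz2. The causes were not tested.

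Leaving out 1 library at a time gave 0 to 1 members called lower in C2C12 cells at day 3, 0 to 1 lower and 0 to 1 higher in PMs at day 3, and 0 to 1 for the difference at day 3. It gave 8 to 9 members higher in C2C12 cells at days 3 and 6, 9 to 10 in PMs at day 3, and 7 to 9 higher and 0 to 1 lower in PMs against C2C12 cells at days 3 and 6. The ratio of Neb to Ttn after silencing in PMs lay between -0.0622 and 0.0561, positive without siControl replicate 1 and, at 0.0285, without siTead1/4 replicate 1. The ranges were 1.05 to 1.27, -0.36 to -0.29 and -2.65 to -2.49 for Actn3 to Actn2 in C2C12 cells, PMs and between them, -1.89 to -0.44, 0.55 to 1.35 and 3.66 to 5.12 for Myoz1 to Myoz2, and -0.34 to -0.25 and 0.51 to 0.63 for Neb to Ttn in C2C12 cells and between the cell types.

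Replicate numbers were shared by groups, but nothing in the labels ties equal numbers to a shared culture. Correlations of same-numbered deviations ranged from -0.20 to 0.52 over 15 pairs of groups in C2C12 cells (median 0.086, 6 over 0.1) and from 0.069 to 0.54 in PMs (median 0.22, 14 over 0.1). Between siControl and siTead1/4 of the same day in PMs they were 0.41, 0.44 and 0.54 at days 0, 3 and 6. With 2 replicates per group this is a hint from the data, not the design. With the replicate block, members called lower numbered 4 in C2C12 cells at day 3 and 1 in PMs at days 0 and 3, in both cases Myoz2 (edgeR adjusted p = 0.0204 and 0.00773). Also, 3 members were called in the difference at day 3, and 1 was called lower between days 3 and 6 in PMs. With the block, exact sign flips over 64 arrangements had a smallest possible p of 0.03125. Actn3 to Actn2 in C2C12 cells (1.16) and between the cell types (-2.57) stood at this smallest p (sign flip adjusted p = 0.0703). So did Neb to Ttn in C2C12 cells (-0.30) and Myoz1 to Myoz2 in PMs (0.95). For these ratios the adjusted p reflects the number of arrangements and does not show a weaker difference. The sign flip adjusted p was 0.0938 for Myoz1 to Myoz2 in C2C12 cells (-1.16) and for Neb to Ttn between the cell types (0.57). A crossed pairing, chosen after seeing the data since same-numbered C2C12 libraries of day 0 deviated in opposite ways (r = -0.14), called 37 genes higher and 83 lower there, against 27 and 55 with the block and 21 and 46 without.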
